A study of Homo sapiens with 4 samples.

Results

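JUN, JUNB, JUND, FOS, FOSB, FOSL1, FOSL2 and EGR1, 8 genes of the AP-1 and early growth response families, were followed across SCP2 breast cancer cells that carried a vector or were labelled as overexpressing DLC1. They were taken as every probe set whose annotated symbol is exactly one of these names, which gave 20 probe sets of 54675, and 8 of 19775 named genes. The study has 4 groups of 1 array each: vector control cells, vector control cells treated with TGF-beta, DLC1 overexpression cells, and DLC1 overexpression cells treated with TGF-beta. SCP2 is a bone-colonising subline of the human breast cancer line MDA-MB-231, DLC1 is known as a tumour suppressor, and the title of the study places the work in bone metastasis. All 4 cultures are of this line, harvested with trypsin. The dose and time of TGF-beta, the vector's promoter, and whether the overexpressing cells are a clone or a pool are not stated in the labels used here.

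AP-1 is a dimer of basic leucine zipper proteins. Jun proteins pair with each other or with Fos proteins, Fos proteins need a Jun partner, and the dimers bind the sequence TGANTCA. EGR1 is a zinc finger factor that binds GC-rich sites and is held back by the corepressors NAB1 and NAB2. Most of these genes are immediate early genes: growth factors, stress and adhesion raise their transcripts within minutes through MAP kinases, and the transcripts decay fast, so a level from a single harvest depends on its time. In mesenchymal-type breast cancer lines such as MDA-MB-231, FOSL1 is known as a main Fos partner, and SMAD complexes activated by TGF-beta are known to bind together with AP-1 at many genes.

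The stretches of DNA just before the start sites of 4 of the genes are shown because JUN and JUND, close relatives, differed in opposite directions between the arrays labelled DLC1 and the vector arrays, because EGR1 had the lowest difference there among the brightest sets, and because JUNB was the gene that rose with TGF-beta. Each is the 250 bases before the annotated start, from RefSeq on build GRCh38.p14, written 5′ to 3′ on the gene's strand. Capitals mark matches to TGACNTCA, the site bound by Jun with ATF or CREB partners (JUN, JUND), to the CArG box bound by SRF (EGR1) and to the EGR site GCGNGGGCG (EGR1).
JUN, chr1:58784048-58784297, minus strand: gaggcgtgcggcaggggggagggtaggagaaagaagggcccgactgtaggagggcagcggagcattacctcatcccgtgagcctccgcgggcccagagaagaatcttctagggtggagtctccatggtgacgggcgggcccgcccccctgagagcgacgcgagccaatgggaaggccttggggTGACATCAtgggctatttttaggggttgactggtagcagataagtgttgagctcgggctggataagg
JUND, chr19:18281623-18281872, minus strand: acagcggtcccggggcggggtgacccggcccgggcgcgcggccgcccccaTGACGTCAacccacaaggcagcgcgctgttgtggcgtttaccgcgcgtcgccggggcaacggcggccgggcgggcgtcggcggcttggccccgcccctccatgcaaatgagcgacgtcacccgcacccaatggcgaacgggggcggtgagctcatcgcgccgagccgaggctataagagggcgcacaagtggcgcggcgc
EGR1, chr5:138465229-138465478, plus strand: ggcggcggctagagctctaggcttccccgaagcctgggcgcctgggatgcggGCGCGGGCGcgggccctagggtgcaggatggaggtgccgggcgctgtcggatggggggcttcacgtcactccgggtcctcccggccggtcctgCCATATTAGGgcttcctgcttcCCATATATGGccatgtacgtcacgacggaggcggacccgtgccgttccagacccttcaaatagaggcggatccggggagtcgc
JUNB, chr19:12791236-12791485, plus strand: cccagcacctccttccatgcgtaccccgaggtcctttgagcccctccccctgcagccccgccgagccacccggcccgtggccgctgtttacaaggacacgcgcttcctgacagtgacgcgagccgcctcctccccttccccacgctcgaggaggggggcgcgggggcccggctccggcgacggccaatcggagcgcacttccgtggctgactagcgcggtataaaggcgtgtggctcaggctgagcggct

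In JUN the match was TGACATCA, from 67 to 60 bases before the start, and in JUND it was TGACGTCA, from 200 to 193 bases before. In EGR1 the CArG boxes CCATATTAGG and CCATATATGG lay from 105 to 96 and from 83 to 74 bases before the start, and the EGR site GCGCGGGCG from 198 to 190. JUNB held none of these motifs in this window. Both strands were searched in the 7 members with a RefSeq promoter entry. TGACNTCA was found in 2 of 7, against 6.87% of 35116 promoter windows of this length. The CArG box was found in 1 of 7, against 1.16%. The EGR site was found in 1 of 7, against 8.41%. The AP-1 site TGANTCA, which is shorter by 1 base than TGACNTCA and shares its ends, was found in 0 of 7, against 6.57%. CAGAC, a short SMAD site that is common by its length, was found in 3 of 7 (FOSB, FOSL2 and EGR1), against 38.0%. A match is a description of letters and not a bound site.

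Values are intensities on a linear scale in arbitrary units, with array medians of 0.38 to 0.39. A gene is represented by its brightest probe set, and stayed in the comparisons if at least 1 of its 4 values was 0.38 or more, the median over the table, which left 13134 genes (called kept genes). With 1 array a group there is no replicate error, and no p-value is given. A difference is called when it reaches 2-fold, a log2 difference of 1. The brightest DLC1 probe set read 1.77 and 2.51 in the vector arrays and 3.38 and 3.64 in the arrays labelled DLC1, without and with TGF-beta, under 2-fold in both states, and the next, 224822_at, differed by -0.31 and -0.51 on the log2 scale; a dim set, 220512_at, gave -0.53 and -1.11. The transcript therefore leaves the labels unsettled, and the arrays are named by label throughout. The 6 genes listed for an MDA-MB-231 derived line, VIM, CD44, KRT8, KRT18, ANXA1 and LGALS1, were all kept, with summed intensities of 474 to 533. The 6 luminal markers, of which 3 were kept, summed to 9.88 to 12.8. Probe sets differ in brightness, so these sums describe levels and do not identify the line. Among the luminal markers EPCAM, at 5.76 to 7.45, and GATA3, at 3.0 to 4.59, were well above the filter, while ESR1 and PGR stayed at or under 0.46 and 0.11. The listed leukocyte (2 genes), endothelial (3 genes) and fibroblast (3 genes) markers summed to at most 0.81, 1.28 and 1.09. For beta-actin, the log2 signal at its 5′ end minus that at its 3′ end, a sign of RNA quality, was -3.26, -2.83, -3.11 and -3.03 in the vector, vector with TGF-beta, DLC1 and DLC1 with TGF-beta arrays. For GAPDH it was -0.39, -0.38, -0.35 and -0.39 in the same order. In bulk RNA, fewer cells with a transcript and less of it per cell cannot be told apart.

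Of the 8 genes, 7 were kept and FOSB was not, and 16 of the 20 probe sets passed the same filter. The gene that stood out with TGF-beta was JUNB, which rose in the vector arrays. The Fos relatives FOSL1, FOSL2 and FOS were lower with TGF-beta without reaching 2-fold in their brightest sets. In the arrays labelled DLC1, JUN, FOS and EGR1 were lower than in the vector arrays and JUND and FOSL2 were higher, again under 2-fold in the brightest sets. Over the 4 arrays, the brightest sets of JUNB, FOS and EGR1 spanned at least 2-fold, 3 of 7 members, where 8.8% of kept genes did. The FOS span includes a value under the filter, 0.34. Among the other sets past the filter, JUN 201466_s_at spanned 3.75-fold and FOSL2 228188_at and 218880_at each 2.56-fold. The rest stayed under 2-fold, including the EGR1 sets 227404_s_at at 1.38-fold and 201693_s_at at 1.89-fold.

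**Figure D1:**
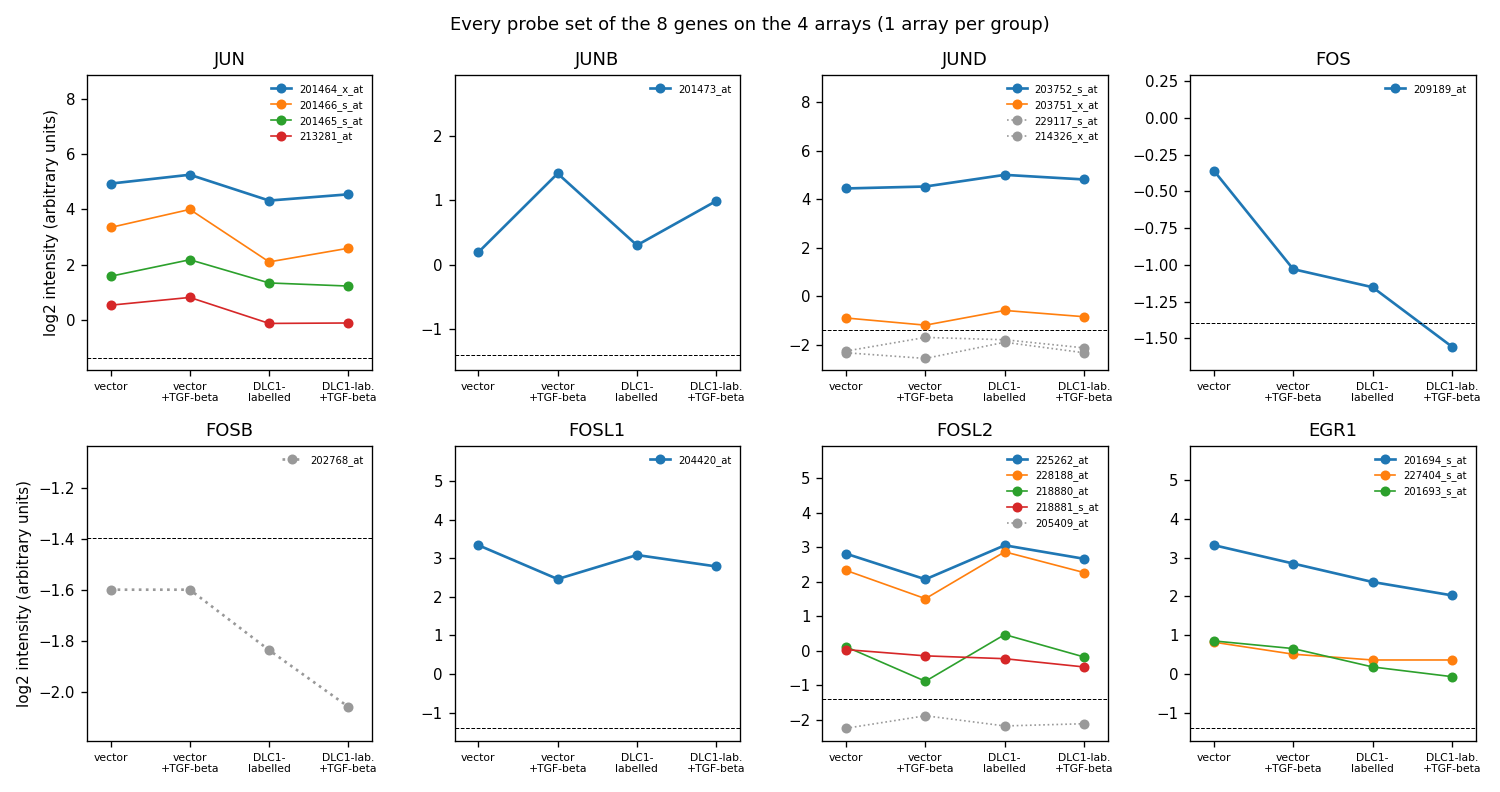
Log2 intensity (vertical axis, arbitrary units, own scale in each panel) of every probe set of the 8 genes on the 4 arrays (horizontal axis), 1 array per group; coloured points are sets past the filter, grey dotted ones are not, lines only join points of a set, and the dashed line is the filter value of 0.38. JUNB peaks in the vector array with TGF-beta at 2.66, the 4 JUN sets lie lower in both DLC1-labelled arrays, and EGR1's brightest set is at 9.99 in the vector array and 5.17 in the DLC1 array.

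JUN encodes c-Jun, the founding Jun protein and the one with strong activating capacity. Its brightest set, 201464_x_at, read 30.69 in the vector array, 38.36 with TGF-beta, 20.03 in the DLC1 array and 23.44 with both. Both DLC1-labelled arrays therefore lay below both vector arrays. The difference from vector was -0.62 without TGF-beta and -0.71 with it, 1.53-fold and 1.64-fold lower. Sets ending in x_at hold probes that may bind other transcripts, and those ending in s_at may bind several transcripts of a gene or family, so each set of JUN is given. The set 201466_s_at read 10.18, 16.03, 4.28 and 6.04 in the same order. It passed 2-fold in both states, at -1.25 and -1.41, or 2.38-fold and 2.65-fold lower; it is named because its values were seen. Among all kept probe sets with 1 symbol, 0.955% were at least 2-fold lower in both states. The remaining sets, 201465_s_at and 213281_at, gave -0.24 and -0.66 in the untreated pair, and -0.96 and -0.93 in the treated pair. All 4 sets were thus lower in the arrays labelled DLC1 in both states, with medians of -0.64 and -0.94, but they disagreed on the size by over 1 log2 unit without TGF-beta.

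Under TGF-beta JUN stayed under the threshold in its brightest set, with 0.32 in vector cells and 0.23 in DLC1-labelled cells. Over its 4 sets the difference ran from 0.28 to 0.66 in the vector arrays, all above 0. In the DLC1-labelled arrays it ran from -0.11 to 0.50, with 1 set below 0. No JUN set was called with TGF-beta in either background.

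JUNB encodes a Jun protein that activates poorly as a homodimer, can restrain c-Jun, and is known as a direct early target of TGF-beta and SMAD signalling. Its only probe set, 201473_at, read 1.14 in the vector array, 2.66 in the vector array with TGF-beta, 1.23 in the DLC1 array and 1.98 in the DLC1 array with TGF-beta. Both treated arrays lay above both untreated ones. The rise with TGF-beta was 2.33-fold in the vector arrays, a log2 difference of 1.22, with rounding of the deposited values able to move it by at most 0.0091. It was higher than in 99.2% of kept genes, and 1.2% of kept genes rose by at least 2-fold. In the DLC1-labelled arrays the difference was 0.69, or 1.61-fold, which does not reach the threshold but exceeded that of 98.3% of kept genes. Between backgrounds, JUNB differed by 0.11 without TGF-beta and by -0.43 with it.

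JUND encodes the Jun protein that is usually present at a steady level in resting cells and is the least inducible of the family. Its brightest set, 203752_s_at, read 21.85 and 23.10 in the vector arrays and 32.22 and 28.25 in the arrays labelled DLC1, without and with TGF-beta. Both DLC1-labelled arrays lay above both vector arrays. The differences between backgrounds were 0.56 and 0.29, or 1.47-fold and 1.22-fold higher, opposite in direction to those of JUN. The other set past the filter, 203751_x_at, gave 0.31 and 0.35. Under TGF-beta the brightest set gave 0.08 in vector cells and -0.19 in DLC1-labelled cells. The first turned to -0.02 when arrays were centred on their median housekeeping level, a median set by different genes on different arrays. The set 203751_x_at gave -0.30 and -0.26 with TGF-beta in vector and DLC1-labelled cells. The sets 229117_s_at and 214326_x_at stayed between 0.17 and 0.31 on every array, under the filter.

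FOS encodes c-Fos, the classic transient immediate early protein. Its only set, 209189_at, was dim: it read 0.78 in the vector array, 0.49 with TGF-beta, 0.45 in the DLC1 array and 0.34 with both. The last value lies under the filter. In vector cells FOS gave -0.67 under TGF-beta, and in DLC1-labelled cells -0.40. Between backgrounds it differed by -0.79 without TGF-beta and by -0.53 with it. The untreated vector array was the highest, and, here as for every gene, the differences with TGF-beta in vector cells and between backgrounds without TGF-beta share that array. Rounding could move each of these by at most 0.037. FOSB, a relative that also has a short inhibitory splice form, read 0.33, 0.33, 0.28 and 0.24 in its only set, under the filter on every array, so no difference of it is counted.

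FOSL1 encodes Fra-1, a Fos protein without the strong activation domain of c-Fos. Its only set, 204420_at, read 10.11 in the vector array, 5.50 with TGF-beta, 8.47 in the DLC1 array and 6.90 with both. Both treated arrays lay below both untreated ones. The difference with TGF-beta was -0.88 in the vector arrays, 1.84-fold lower and lower than in all but 1.05% of kept genes, and 0.685% of kept genes fell by at least 2-fold there. In the DLC1-labelled arrays it was -0.30, or 1.23-fold lower. Between backgrounds FOSL1 gave -0.26 without TGF-beta and 0.33 with it, so the order of vector and DLC1-labelled arrays turned.

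FOSL2 encodes Fra-2, the closest relative of Fra-1. Its brightest set, 225262_at, read 7.01 in the vector array, 4.19 with TGF-beta, 8.30 in the DLC1 array and 6.33 with both. Under TGF-beta it gave -0.74 in vector cells and -0.39 in DLC1-labelled cells. The set 228188_at, at 5.01, 2.84, 7.28 and 4.8, gave -0.82 and -0.60. The set 218880_at read 1.08 and 0.54 in the vector arrays, exactly at the threshold with -1.0, where rounding by up to 0.020 leaves the call undecided; in the DLC1-labelled arrays it gave -0.65. All 4 sets past the filter were below 0 with TGF-beta in both backgrounds, including 218881_s_at at -0.18 and -0.24. The sets parted between backgrounds. The first 3 were higher in the arrays labelled DLC1, by 0.24 to 0.54 without TGF-beta and by 0.60 to 0.76 with it, while 218881_s_at gave -0.26 and -0.32. The set 205409_at stayed between 0.21 and 0.27, under the filter.

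EGR1 encodes the early growth response factor. Its brightest set, 201694_s_at, read 9.99 in the vector array, 7.19 with TGF-beta, 5.17 in the DLC1 array and 4.07 with both. Both DLC1-labelled arrays lay below both vector arrays. The difference between backgrounds was -0.95 without TGF-beta and -0.82 with it, 1.93-fold and 1.77-fold lower, and only 2.62% and 2.60% of kept genes lay lower. The set 201693_s_at gave -0.67 and -0.72, and 227404_s_at gave -0.46 and -0.15. All 3 sets were below 0 in both states, none reached 2-fold, and the sets disagreed on the size. Under TGF-beta the brightest set gave -0.47 in vector cells and -0.35 in the DLC1-labelled cells, and 227404_s_at was the same, 1.28, in both DLC1-labelled arrays.

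**Figure D2:**
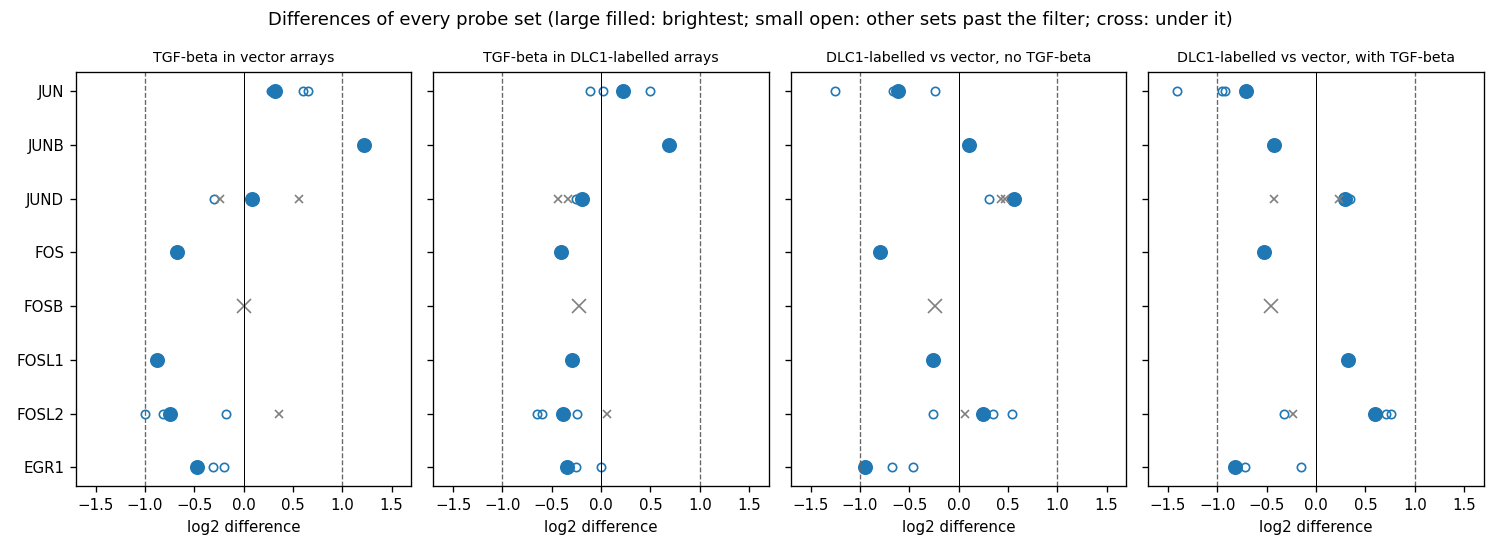
Log2 difference (horizontal axis) of every probe set of the 8 genes in 4 comparisons of 2 arrays each; large filled points are the brightest set of a gene, small open points are other sets past the filter, crosses are sets under it, and dashed lines mark 2-fold. JUNB passes the line with TGF-beta in the vector arrays at 1.22, and among JUN sets 201466_s_at passes it in both comparisons of DLC1-labelled with vector arrays.

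The pair of vector arrays shows the response to TGF-beta in the control cells. Of the 7 kept members JUNB rose and 0 fell, where 1.2% of kept genes rose and 0.685% fell. By their brightest sets JUN, JUNB and JUND were above 0, and FOS, FOSL1, FOSL2 and EGR1 below 0. The sign of JUND is not settled, since its brightest set gave 0.08 and its other set past the filter -0.30. Their median was -0.47, against -0.03 over all kept genes. With a 1.5-fold rule, FOSL1, FOSL2 and FOS were past the line downward as well, 3 of 7, where 2.9% of kept genes were, and JUNB upward, where 3.12% were. Below 0 lay 4 of 7, against 54.8% of kept genes, and above 0 3 of 7, against 43.3%. Of the 16 probe sets past the filter, 1 rose (JUNB) and 1 was at the line downward (FOSL2 218880_at), where 1.25% and 0.529% of all kept probe sets were.

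In the DLC1-labelled arrays 0 of 7 members were called with TGF-beta, where 0.777% of kept genes rose and 0.107% fell. JUN and JUNB were above 0, 2 of 7 against 46.0% of kept genes, and the other 5 below, against 52.1%, with a median of -0.30 against -0.01 over all kept genes. With a 1.5-fold rule 1 of 7, JUNB, was past the line upward, where 2.3% of kept genes were, and 0 downward, where 1.04% were. Of 16 probe sets 0 were called, where 0.73% of kept sets rose and 0.0943% fell. These arrays and the vector arrays are separate, so the 2 responses share no array. FOS, FOSL1, FOSL2 and EGR1 were below 0 in both, 4 of 7, where 36.8% of kept genes were, and JUN and JUNB were above 0 in both, 2 of 7, where 28.2% were. None of the 7 members or the 16 probe sets was at least 2-fold lower in both, where 0.0609% of kept genes and 0.041% of kept sets were. The difference was smaller in size in the DLC1-labelled arrays for 6 of 7 members, all but JUND, where 59.4% of kept genes showed the same.

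The comparison of DLC1-labelled with vector arrays addresses DLC1 overexpression as the labels give it. Without TGF-beta 0 of 7 members were called by the brightest set, where 1.61% of kept genes were at least 2-fold higher and 2.31% at least 2-fold lower. With TGF-beta 0 of 7 were called, where 1.45% were higher and 1.61% lower. The medians of the members were -0.26 and -0.43, against -0.03 and -0.02 over all kept genes. JUN, FOS and EGR1 were below 0 in both states, 3 of 7, where 42.6% of kept genes were, and JUND and FOSL2 were above 0 in both, 2 of 7, where 36.1% were. None of the 7 was at least 2-fold lower in both, where 1.1% of kept genes were. JUNB and FOSL1 had opposite signs in the 2 states. Above 0 lay 3 of 7 in each state, where 45.3% and 46.8% of kept genes did. Of 16 probe sets 1, JUN 201466_s_at, was called lower in each state and 0 higher, where 1.95% and 1.53% of kept sets were lower and 2.18% and 1.77% higher. With a 1.5-fold rule, JUN, FOS and EGR1 were past the line without TGF-beta, 3 of 7, where 8.85% of kept genes were lower by as much, and 0 were past it upward, where 5.8% were. With TGF-beta, JUN and EGR1 were past it downward and FOSL2 upward, where 6.65% of kept genes were lower and 5.88% higher.

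**Figure D3:**
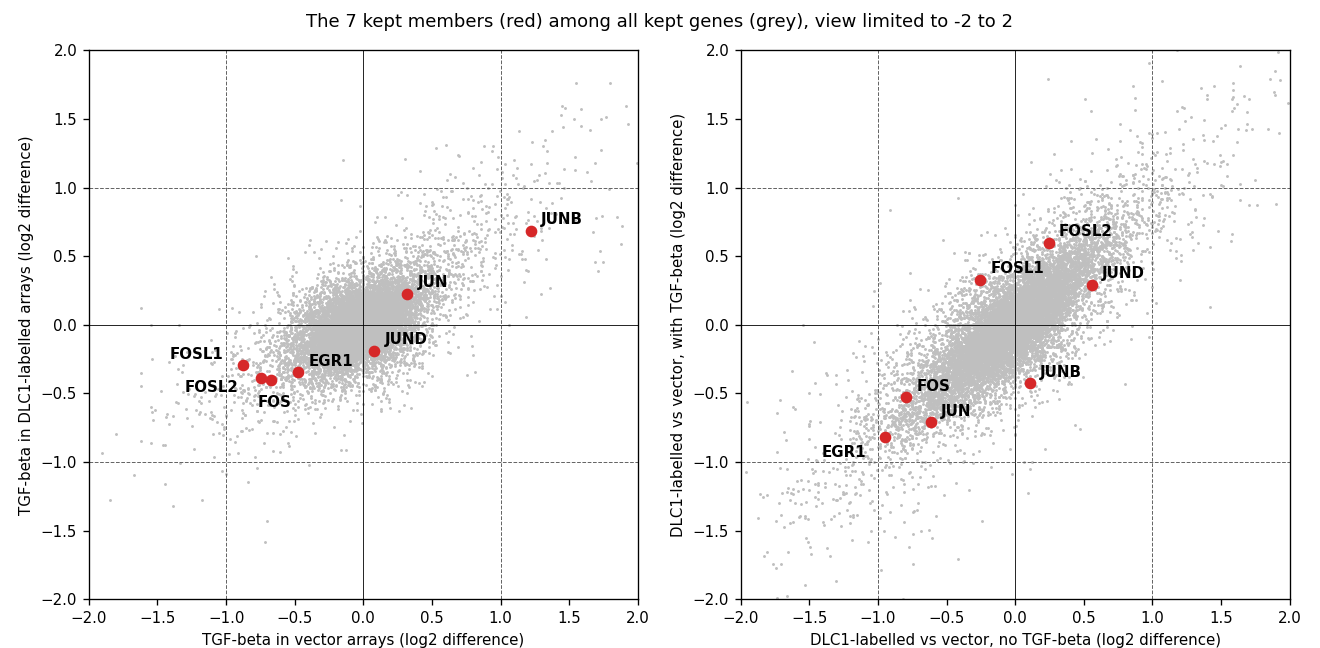
Log2 differences of the 7 kept members (red, named) among all 13134 kept genes (grey), with the TGF-beta response of vector arrays against that of DLC1-labelled arrays on the left and the difference between backgrounds without against with TGF-beta on the right; axes stop at 2 log2 units, which leaves 37 and 39 genes outside, and dashed lines mark 2-fold. JUNB lies at the upper right of the left panel at 1.22 and 0.69, and EGR1, JUN and FOS lie at the lower left of the right panel.

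The interaction, the TGF-beta difference in the DLC1-labelled arrays minus that in the vector arrays, uses all 4 arrays. It was called for 0 of 7 members, where 0.19% of kept genes were called upward and 0.175% downward, and for 0 of 16 probe sets, where 0.156% and 0.25% of kept sets were. Above 0 lay 4 of 7, against 53.8% of kept genes. JUNB and FOSL1 had the biggest values, -0.54 and 0.58, which lay above 1.64% and 98.2% of kept genes. In both cases the response was smaller in the DLC1-labelled arrays. FOSL2 gave 0.35, FOS 0.27, EGR1 0.13, JUN -0.10 and JUND -0.27. Among the JUN sets the interaction ran from -0.71, in 201465_s_at, to -0.10.

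For the 3 members whose brightest sets spanned at least 2-fold, the most similar profiles were found among 13127 other kept genes. The measure was the Euclidean distance between log2 values of brightest sets, centred on each gene's mean over the 4 arrays. Points in such a profile are the 4 arrays themselves, so closeness describes them alone. Nearest to JUNB were ANGPTL4, which encodes a secreted inhibitor of lipoprotein lipase, at a distance of 0.056, CALD1, the caldesmon gene, at 0.14, and the small GTPase gene RALA at 0.14. ANGPTL4 read 1.05, 2.57, 1.14 and 1.83 in the vector, vector with TGF-beta, DLC1 and DLC1 with TGF-beta arrays. Nearest to EGR1 were MND1 at 0.068, LRRCC1 at 0.074 and CDCA3 at 0.079. MND1, a meiotic recombination gene, read 9.43, 6.81, 4.63 and 3.85. Nearest to FOS were XK at 0.011, VXN at 0.088 and the receptor gene GPR19 at 0.10.

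Other genes of the pathway were taken from 7 lists with 124 distinct genes outside the 8, of which a few sit on more than 1 list. Upstream of the members, 25 kinases and factors were kept and none passed 2-fold in any comparison. At most 2.31% of kept genes passed it in 1 direction of any comparison, so 0 of 25 lies near the share over all genes. The medians of the 25 were 0.04 and 0.05 with TGF-beta, and -0.08 and -0.14 between backgrounds, without and with TGF-beta. SRF, which binds CArG boxes and is named for that reason outside the naming rule, gave 0.04 and -0.03 with TGF-beta and -0.01 and -0.08 between backgrounds. ELK3, an SRF partner of the ETS family, gave -0.76 in the untreated and -0.22 in the treated pair between backgrounds, and RPS6KA1, a kinase downstream of ERK, gave -0.81 and -0.58 in the same pairs. SMAD3, the TGF-beta signal transducer that binds with AP-1, read 7.33 and 4.10 in the vector arrays and 4.97 and 3.53 in the DLC1-labelled ones, differences of -0.84 and -0.49 with TGF-beta.

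Of the 21 kept dimer partners and other leucine zipper factors, 1 fell with TGF-beta in the vector arrays, CEBPD, an inflammation-linked factor, at -1.01. There 0.685% of kept genes fell. In the DLC1-labelled arrays 1 rose, MAF, at 1.12, where 0.777% of kept genes rose. MAF read under the filter on the other 3 arrays, so the size of that difference is uncertain. Between backgrounds, the DLC1-labelled against the vector arrays, the list's medians were 0.18 and 0.36, against -0.03 and -0.02 over all kept genes, with 14 and 15 of 21 above 0, where 45.3% and 46.8% of kept genes were. With all probe sets of a gene averaged the medians were 0.19 and 0.09, so the treated value depends on the choice of the brightest set. JDP2, a repressor that pairs with Jun proteins, rose without TGF-beta, from 0.95 to 2.12, a difference of 1.16, and gave 0.82 with it. DDIT3, a stress-induced factor, was higher by 1.03 in the treated pair and by 0.86 in the untreated pair. JDP2 was the 1 of 21 called in the untreated pair, where 1.61% of kept genes were at least 2-fold higher. DDIT3 was the 1 called in the treated pair, where 1.45% were. CEBPB, a relative of CEBPD, gave 0.88 and 0.81. Of the 9 kept regulators of Jun and Fos protein, JDP2 was the 1 called between backgrounds, without TGF-beta, beside the same 1.61% of kept genes. None of the 9 was called with TGF-beta. FBXW7, a ubiquitin ligase subunit that targets c-Jun, gave 0.49 in each state in its brightest set.

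Among 15 other immediate early genes, RHOB and TRIB1 rose with TGF-beta in the vector arrays, at 1.88 and 1.06, where 1.2% of kept genes rose. They gave 0.72 and 0.48 in the DLC1-labelled arrays. RHOB read 0.65, 2.40, 0.88 and 1.45, the same order of arrays as JUNB. RHOB was the 1 gene of this list called in the interaction, at -1.16, where 0.175% of kept genes were called downward. Below 0 lay 13 of 15 there, against 46.0% of kept genes. NR4A2, an orphan nuclear receptor gene, was higher in the DLC1-labelled arrays in both states, from 1.44 to 4.06 and from 1.0 to 2.36. The differences were 1.5 and 1.24. It was the 1 gene of this list called between backgrounds, where 1.61% and 1.45% of kept genes were at least 2-fold higher. Its 3 sets gave 1.44 to 1.54 in the untreated pair and 1.24 to 1.59 in the treated pair. Thus NR4A2 was higher between backgrounds where FOS and EGR1 were lower. The whole list had medians of 0.19 in the untreated and -0.04 in the treated pair, against -0.03 and -0.02 over all kept genes. Above 0 lay 11 and 6 of 15, where 45.3% and 46.8% of kept genes did. Of 4 kept EGR relatives and corepressors, NAB1 gave -0.12 and -0.19 with TGF-beta and NAB2 gave 0.17 and 0.26; between backgrounds NAB1 gave 0.11 and 0.04 and NAB2 0.05 and 0.13. WT1, a zinc finger factor related to EGR1, was the 1 called, at -1.5 without TGF-beta, from 1.10 to 0.39, close to the filter. In that comparison 2.31% of kept genes were at least 2-fold lower.

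Genes that AP-1 is known to act on lay mostly below 0 between backgrounds. Of 22 kept, 18 of the untreated and 19 of the treated differences lay below 0, where 53.5% and 52.0% of kept genes did, with medians of -0.40 and -0.39. By their brightest sets 5 fell without TGF-beta, MMP3, CCL2, HBEGF, PLAU and IL11, where 2.31% of kept genes were at least 2-fold lower. With TGF-beta 5 fell, MMP3, CCL2, SPHK1, ITGA5 and IL11, where 1.61% were. None rose in either state by its brightest set, where 1.61% and 1.45% of kept genes were at least 2-fold higher. VEGFA, a gene of the list, was higher in the DLC1-labelled arrays, by 0.76 and 0.71 in its brightest set. Its set 210513_s_at was past 2-fold upward in both states, at 1.77 and 1.61, and 212171_x_at gave 0.91 and 1.04. The other IL11 set gave -0.85 and -0.77, under the threshold. PLAU, the urokinase gene, read 24.72 in the vector array, 72.43 with TGF-beta, 11.42 in the DLC1 array and 38.82 with both. HBEGF, which encodes a growth factor that binds the EGF receptor, read 6.91, 5.66, 3.09 and 2.99, and its set 203821_at gave -1.26 without TGF-beta. With TGF-beta, 5 of the list rose in the vector arrays, where 1.2% of kept genes did. They were HMOX1 by 2.06, SPHK1 by 1.73, PLAU by 1.55, ITGA5 by 1.27 and IL11 by 1.04 (0.54 in its other set). There 1 fell, EREG, to 0.14, under the filter, where 0.685% of kept genes fell. In the DLC1-labelled arrays 3 rose, where 0.777% of kept genes did: PLAU by 1.77, HMOX1 by 1.32 and SPHK1 by 1.27. None fell there, where 0.107% did. Several of these genes were known from earlier results of these data when the list was written, and the list supports no direction on its own.

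Of 9 kept genes that EGR1 is known to activate, PDGFB rose with TGF-beta in both backgrounds, by 1.13 and 1.42 in its brightest set. That set read 0.42 and 0.92 in the vector arrays and 0.54 and 1.44 in the DLC1-labelled ones, without and with TGF-beta. Its untreated values lie close to the filter, so the sizes are uncertain. Another PDGFB set did not reach 2-fold, at 0.49 and 0.91. THBS1 rose in the DLC1-labelled arrays by 1.21. Of all kept genes 1.2% and 0.777% rose by at least 2-fold in the vector and DLC1-labelled arrays. The brightest THBS1 set gave 0.31 in the vector arrays, where its other sets past the filter gave 1.07 to 1.75. Between backgrounds the list had medians of 0.04 and 0.13, with 5 of 9 above 0 in each state, where 45.3% and 46.8% of kept genes were. THBS1 was the 1 called there by its brightest set, at -1.68 without TGF-beta, while EGR1 itself gave -0.95. With TGF-beta that set gave -0.78 and was not called, but the THBS1 sets 201109_s_at, 215775_at, 235086_at and 239336_at gave -1.31, -1.53, -1.48 and -1.24.

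**Figure D4:**
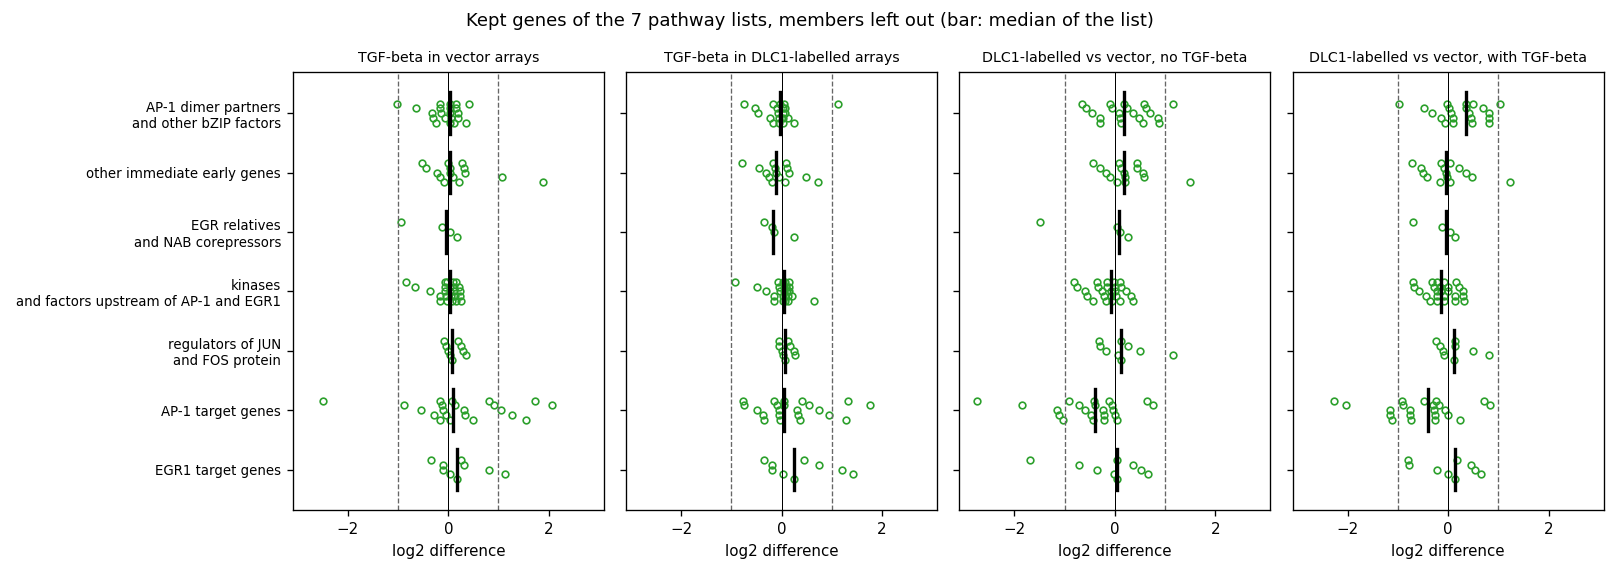
Log2 differences (horizontal axis) of the kept genes of 7 pathway lists with the 8 members left out, in 4 comparisons of 2 arrays each; each open circle is a gene, the black bar is the median of its list and dashed lines mark 2-fold. By brightest sets, the AP-1 target genes have medians of -0.40 and -0.39 between backgrounds and the leucine zipper partners 0.18 and 0.36. The upstream kinases and factors stay inside the lines throughout.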

How the data were processed

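Messenger RNA was measured on 1 array for each of 4 groups, assigned by their titles. The authors deposited 1 table of intensities, on a linear scale with 2 decimals and an unstated divisor; per the submitters' processing notes the method was RMA, whose version and settings are not given. RMA makes the arrays' distributions alike and hides a shift common to most genes. Log2 was taken before any difference. Symbols came from the supplied platform annotation: 41097 probe sets had 1 symbol, 1801 had several and 11777 had none, and all 8 members matched their RefSeq gene ID. A gene was its probe set with the highest mean log2 value, kept if its highest value reached 0.38. Named genes were the members, DLC1, called or biggest-differing genes of the lists, up to 6 a comparison, and the 3 nearest profiles; other sets and genes were singled out after their values were seen, and the text says so for JUN and SRF. Motifs were searched in 250 bases before each start. The members, lists and rules were chosen with earlier results of these data known. The number of arrays limits precision, and no test was run. Alternatives were the mean of all sets, no filter, a 75th percentile filter, quantile normalization, centring on housekeeping genes, a pseudocount of 0.1 and a 1.5-fold rule. Python 3.11.15, numpy 2.4.6 and pandas 2.3.3 were used.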

Additional observations from a re-analysis of the deposited data

Results flagged for a closer look

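Among the 16 probe sets past the filter, the brightest set of 3 genes and 1 further JUN set changed sign between a pair of comparisons that share no array, by more than rounding can give, and none of these differences between comparisons was tested, since each rests on 1 array a group. JUN 201465_s_at gave 0.60 under TGF-beta in vector cells and -0.11 in DLC1-labelled cells. JUND 203752_s_at gave 0.080 and -0.19 in the same pair. JUNB 201473_at differed between backgrounds by 0.11 without TGF-beta and by -0.43 with it. FOSL1 204420_at differed by -0.26 and 0.33 in that pair.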

How the results depend on the processing

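No paired analysis was possible because each group has 1 array and the labels carry no replicate numbers. Averaging all probe sets of a gene gave 1 member called between backgrounds with TGF-beta (JUN, at -1.0006) in place of 0. That value lies at the line, and rounding, up to 0.012 in the JUN set 213281_at, leaves the call undecided. Under averaging the genes called between backgrounds without TGF-beta numbered 320 against 514, and those called in the interaction 30 against 48. The pathway list genes called numbered 6 against 10 in the vector response and 0 against 2 in the interaction. A 75th percentile filter, 1.97, gave 258 genes against 401 between backgrounds with TGF-beta, and in the interaction 21 genes and 1 list gene. A pseudocount of 0.1 gave 30 genes in the interaction. A 1.5-fold rule called 4 members in the vector response and 1 in the DLC1-labelled response, and 3 between backgrounds in each state. It called 791, 438, 1925, 1646 and 404 genes, and 17, 15, 24, 26 and 7 list genes, in the order vector response, DLC1-labelled response, backgrounds without and with TGF-beta, and interaction; these larger numbers follow from the lower line. The cause of the other shifts was not tested. Centring on housekeeping genes moved the median of all kept genes by -0.10 and -0.15 with TGF-beta, and by 0.08 and 0.02 between backgrounds. It subtracted each array's median housekeeping level, and the genes at that median differed between arrays. The median difference of the 10 kept housekeeping genes was 0.03 in the vector response and -0.02 in the DLC1-labelled response. These shifts and the splits below therefore depend on how the median was taken. This centring turned the split of called genes from 157 higher and 90 lower to 125 and 123 in the vector response. The split went from 102 and 14 to 68 and 33 in the DLC1-labelled response, and from 211 and 303 to 258 and 246 between backgrounds without TGF-beta. With the interaction, 25 and 23 became 18 and 26. This centring changed no member's call and turned only the sign of JUND's TGF-beta difference in the vector arrays. JUNB's rise with TGF-beta in the vector arrays ran from 1.13 to 1.22 over the alternatives. Signal over background limits FOS, which lies near the filter, and FOSB, which lies under it.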
